A study of Mus musculus with 47 samples.

Results

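The genes described here encode parts of cilia and were measured by RNA sequencing in the mouse striatum, whose medial face borders the lateral ventricle. Members were all rows of the count table whose symbol joined Dnah, Cfap, Rsph, Drc, Dnaaf, Tekt, Ift or Bbs to a number with at most 1 letter after it. The rule found 81 of 48795 genes. It gave 59 motile cilium genes, which were 25 Cfap, 15 Dnah, 8 Rsph, 5 Tekt, 4 Dnaaf and 2 Drc, and 22 general cilium genes, which were 14 Ift and 8 Bbs. No measured value entered the rule. Of these, 58 motile and 22 general members passed the filter on low counts and were tested with 19193 genes in all. Tekt3, a tektin, reached at most 7 counts in a library, was at 0 in 9 of 47 libraries and was not tested.

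Striatum was dissected from 47 C57BL mice at 6 months of age, in 6 genotype groups. The groups were wild type, Q140 and Ccdc82+/-, then Ccdc82-/-, and the crosses Q140 Ccdc82+/- and Q140 Ccdc82-/-. Each had 4 females and 4 males except the last, with 3 females and 4 males. Q140 animals are heterozygous for a knock-in Htt allele whose CAG repeat is expanded, a mouse model of Huntington's disease. The Ccdc82 alleles are given as +/- and -/- with no further description, and no Cre or transgene is named. The study asked how loss of Ccdc82 bears on the striatal transcriptome with and without the expanded allele.

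Cilia grow from a basal body along a microtubule axoneme. Motile cilia add dynein arms (Dnah), radial spokes (Rsph), the nexin-dynein regulatory complex (Drc), tektin filaments (Tekt) and many associated proteins (Cfap), and need cytoplasmic factors that assemble the dynein arms (Dnaaf). In the brain they stand in tufts on the ependymal cells that line the ventricles and move cerebrospinal fluid. Intraflagellar transport (Ift) carries cargo along the axoneme, and the BBSome (Bbs) moves membrane proteins in and out. Both serve every cilium, including the solitary, immotile primary cilium of neurons and astrocytes.

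Total counts ranged from 41.3 M to 61.7 M per library. Ccdc82, the targeted gene, had a median of 12.3 counts per M counts (CPM) and a range of 10.6 to 12.9 in wild type. It averaged 8.42 ± 0.52 (SD, n = 8) in Ccdc82+/- and 4.57 ± 0.67 (SD, n = 8) in Ccdc82-/-, and its means were 11.6, 8.61 and 4.56 CPM in the same order with Q140. Htt ranged from 195.2 to 229.8 CPM without and from 183.1 to 219.8 CPM with the Q140 allele, a check that does not separate the alleles. The labelled tissue held its defining markers: all 8 markers of medium spiny neurons were tested, and all 8 fell with Q140. Some libraries stood apart. Ccdc82+/- female 4 and Q140 male 1 were lowest in motile members and in ependymal markers. Ccdc82-/- male 1 was highest in choroid plexus markers, at 361.8 summed CPM against a median of 31.8 over the 24 mice without Q140.

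Promoter letters are shown for a few members because the motile members moved together between mice, as described next. RFX transcription factors, regulators of ciliary genes, read the X-box, of which GTTGCCA is 1 arm. Windows of 300 bases, from RefSeq on GRCm38.p6 (250 bases before and 50 after the annotated start), were matched for 68 of 81 members. The 7 letters, on either strand and as TGGCAAC on the other, were in 10 of 49 motile windows (20.4%), 3 of 19 general windows (15.8%) and 5.02% of the 27025 windows of all genes. The sequences below lie upstream of the start site, and capitals mark the 7 letters.
Cfap161, chr7:83794856-83794896, minus strand: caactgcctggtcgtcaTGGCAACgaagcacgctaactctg
Cfap44, chr16:44394762-44394798, plus strand: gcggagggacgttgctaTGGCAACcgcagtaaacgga
Tekt1, chr11:72361883-72361914, minus strand: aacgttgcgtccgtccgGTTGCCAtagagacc
Drc1, chr5:30281364-30281392, plus strand: aggtgactgctttccctTGGCAACggctt
Cfap20, chr8:95434941-95434981, minus strand: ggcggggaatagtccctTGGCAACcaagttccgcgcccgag
Ift27, chr15:78174082-78174107, minus strand: aaggcgggttgatgatgGTTGCCAgg
Cfap161, Cfap44 and Tekt1 followed ependymal markers closely between mice, with r of 0.93, 0.94 and 0.89 in the measure explained below. Drc1 and Ift27 did so weakly, at 0.08 and 0.35, although the letters stand 5 and 2 bases from their start sites. Cfap20 had r of 0.53. Of the motile members with the letters that are not shown, Dnah10 had 0.97, Cfap58 0.72, Dnah7b 0.65, Dnaaf2 0.26 and Cfap74 0.14. A match is a run of letters in a window and was not tested as a binding site.

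Motile members were low and general members moderate in level. On the length-scaled FPKM scale the median of the mean levels was 0.454 for the 59 motile and 6.66 for the 22 general members, and 43 motile against 0 general members were under 1 FPKM. The highest motile level was that of Cfap36 at 29.2 ± 1.73 FPKM (SD, n = 47). Among the other motile families the highest members were Drc1 at 10.2, Tekt5 at 3.39, Rsph3b at 2.98, Dnaaf5 at 2.13 and the dynein heavy chain Dnah1 at 1.28 FPKM. Of the general members the BBSome subunit Bbs4 reached 19.7 and the transport subunit Ift20 16.5 FPKM.

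The classes also differed in how much mice of 1 group differed from each other. With genotype group and sex removed, the SD of log2 CPM between libraries had a median of 0.458 over motile members, 0.0675 over general members and 0.116 over all genes tested. The mean log2 CPM of the 58 motile members ran from 0.060 in Ccdc82+/- female 4 to 1.95 in Q140 Ccdc82-/- male 2. That of the general members stayed between 4.50 and 4.64 in all 47 libraries. In wild type the motile mean averaged 1.36 ± 0.31 (SD, n = 8). Q140 averaged 1.18 ± 0.42 (SD, n = 8), and the ranges of the 6 groups overlapped.

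**Figure D1:**
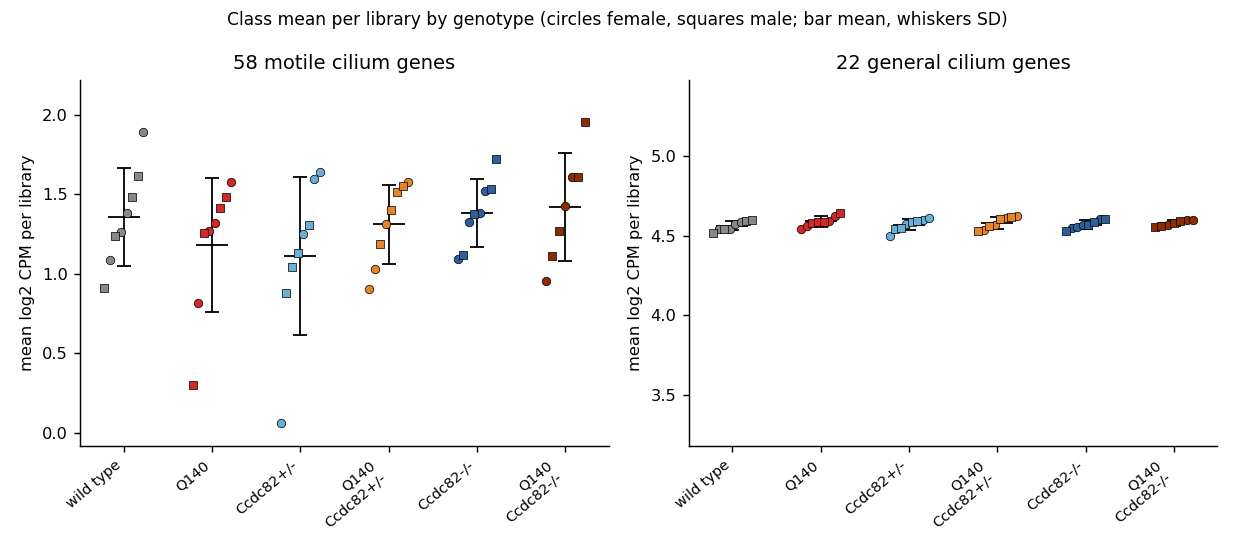
Mean log2 CPM per library of the 58 motile (left) and 22 general (right) cilium genes in the 6 genotype groups, drawn on scales of equal span. Points are libraries, bars the group mean and whiskers 1 SD; motile means range from 0.060 to 1.95, general means from 4.50 to 4.64.

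Outer-arm dynein chain Dnah9 shows the spread in single mice. In wild type it ranged from 2.21 to 7.91 CPM with a median of 3.85, and in Q140 from 1.04 to 5.45 with a median of 3.69. In Ccdc82+/- its range was 0.624 to 5.89 CPM around a median of 3.10, and in Ccdc82-/- it was 2.79 to 6.08 around 4.32. The range was 2.37 to 5.41 CPM in Q140 Ccdc82+/- and 2.17 to 7.77 CPM in Q140 Ccdc82-/-. All 6 ranges overlapped, and mice of the same genotype differed more than the group medians did. The inner-arm chain Dnah6 behaved alike in this respect, with a mean of 5.75 ± 2.27 CPM (SD, n = 47) and a lowest value of 1.14.

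This spread followed ependymal markers. The 13 markers were genes used to mark ependymal cells and none was a member. Among them were Foxj1, the factor that drives motile ciliogenesis, and Cd24a. Some, such as Enkur, are themselves genes of motile cilia, so these markers and the motile members are not independent sets. Over 47 libraries, with group and sex removed, the mean of the motile members and the mean of these markers had r = 0.984 (Spearman 0.968). The coefficient was 0.978 without the 2 libraries farthest from the median, and 0.937 to 0.995 within the 6 groups. These are descriptions, since the points share libraries, scaling and dissection. The mean of the general members had r = 0.26 with the markers, and 0.118 without the 2 farthest libraries. In bulk tissue, fewer ependymal cells and less RNA per cell cannot be told apart.

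**Figure D2:**
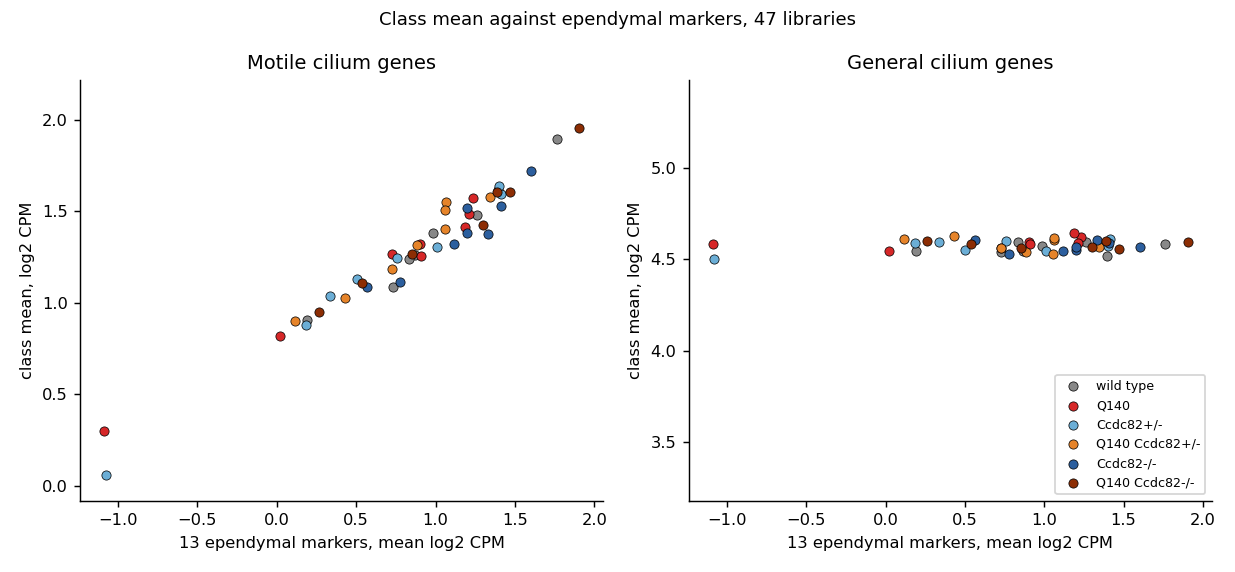
Class mean log2 CPM against the mean log2 CPM of 13 ependymal markers in each of 47 libraries, coloured by genotype group, for motile (left) and general (right) members. Motile means climb with the markers, from 0.060 and 0.301 in the 2 lowest libraries to 1.95, while general means stay between 4.50 and 4.64.

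Single motile members divided by how closely they followed the markers. Of 58 tested, 27 (46.6%) had r of at least 0.8, against 0 of 22 general members and 0.984% of the 19100 other genes tested. The closest were the inner-arm chains Dnah6 and Dnah10, the outer-arm chains Dnah9 and Dnah5, and Cfap43, each at 0.97. At the other end 15 members were under 0.3, with Cfap36 at -0.22 and Cfap97 at -0.14. Dnah14, Tekt5 and Dnah17 were at 0.02 or less, and Dnah8, Drc1, Cfap74 and Tekt2 between 0.04 and 0.17. Some of the 15 had few counts: Dnah14, Dnah17, Dnah8 and Rsph6a averaged 0.57, 0.28, 0.46 and 0.26 CPM. Counting error can lower r at such levels, and its part was not tested. Rsph14, at 0.28 CPM, had r of 0.83. By family the median r was 0.82 for Cfap, 0.79 for Dnah, 0.52 for Rsph and 0.33 for the 4 tested tektins.

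The motile mean also followed 8 markers of neuroblasts and dividing subventricular cells, which lie under the ependyma, with r = 0.946 and 0.915 without the 2 farthest libraries. For choroid plexus markers r was 0.227, for astrocyte markers 0.0583 and for medium spiny neuron markers -0.328. Outside the members, the 15 genes most like the motile mean over 47 libraries were Ttc21a (r = 0.979), Vwa5b1, Ccdc180, Col8a2, Vwa3a, Ak7, Gm626, Hydin, Spata18, Spag17, Lrrc23, Cd24a, Zfp474, Ccdc33 and Lrp2 (r = 0.954). Hydin and Spag17 are parts of the central pair apparatus of motile cilia. The 56 tested genes of a separate list of motile cilium components had a mean with r = 0.992 against the motile members.

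The first genotype question was what the Q140 allele did to these genes. Averaged over the 3 Ccdc82 backgrounds, 16 of 58 motile members passed (9 rose, 7 fell), which is 27.6%, where 54.3% of all genes tested passed. Of the 22 general members 14 passed (9 rose, 5 fell), or 63.6%. The median log2 fold change was 0.026 in both classes and 0.004 over all genes. The motile median had no stable sign. It was -0.041 with the plate column as a factor, -0.12 in females alone and 0.11 in males alone. The general median was 0.018, 0.021 and 0.027 at these settings. The genotype groups were spread unevenly over the 6 plate columns, so the column is partly confounded with genotype. With limma on the deposited FPKM, which are scaled by library totals, 54.9% of all genes passed and calls leaned upward. Of 53 motile members tested there 12 rose and 4 fell, and of the general members 13 rose and 4 fell. The share of called genes that rose moved from 53.0% to 74.7% over all genes.

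Dnah1, an inner-arm dynein heavy chain, fell most. It ranged from 17.4 to 23.9 CPM (median 19.9) in wild type and from 10.1 to 14.3 (median 12.5) in Q140. The ranges were 18.1 to 22.9 in Ccdc82+/- against 10.8 to 14.1 in Q140 Ccdc82+/-, and 16.7 to 22.4 in Ccdc82-/- against 10.9 to 18.3 in Q140 Ccdc82-/-. Carriers and non-carriers did not overlap on intact Ccdc82 or Ccdc82+/-, and on Ccdc82-/- a single carrier, male 2, lay inside the range of the controls. The average log2 fold change was -0.71 ± 0.05 (SE; edgeR adjusted p = 1.41e-16), with -0.75, -0.78 and -0.62 on the 3 backgrounds. Its r with ependymal markers was 0.56.

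Cfap206, which anchors a radial spoke, rose most, at 0.79 ± 0.14 (SE; edgeR adjusted p = 8.41e-06). It ranged from 1.01 to 2.61 CPM in wild type and 1.77 to 3.42 in Q140, from 0.301 to 2.26 in Ccdc82+/- and 1.22 to 2.79 in Q140 Ccdc82+/-, and from 0.660 to 2.02 in Ccdc82-/- and 1.44 to 3.24 in Q140 Ccdc82-/-. The ranges overlapped on every background while the carriers' median was the higher each time. Cfap61, of the calmodulin and spoke associated complex, had medians of 2.03, 1.95 and 2.03 CPM in the 3 control groups and 2.86, 2.80 and 3.22 CPM in their Q140 counterparts. Its log2 fold changes were 0.48, 0.56 and 0.69, each past the threshold, and on Ccdc82-/- the ranges did not overlap. Both followed ependymal markers, with r of 0.80 and 0.76.

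**Figure D3:**
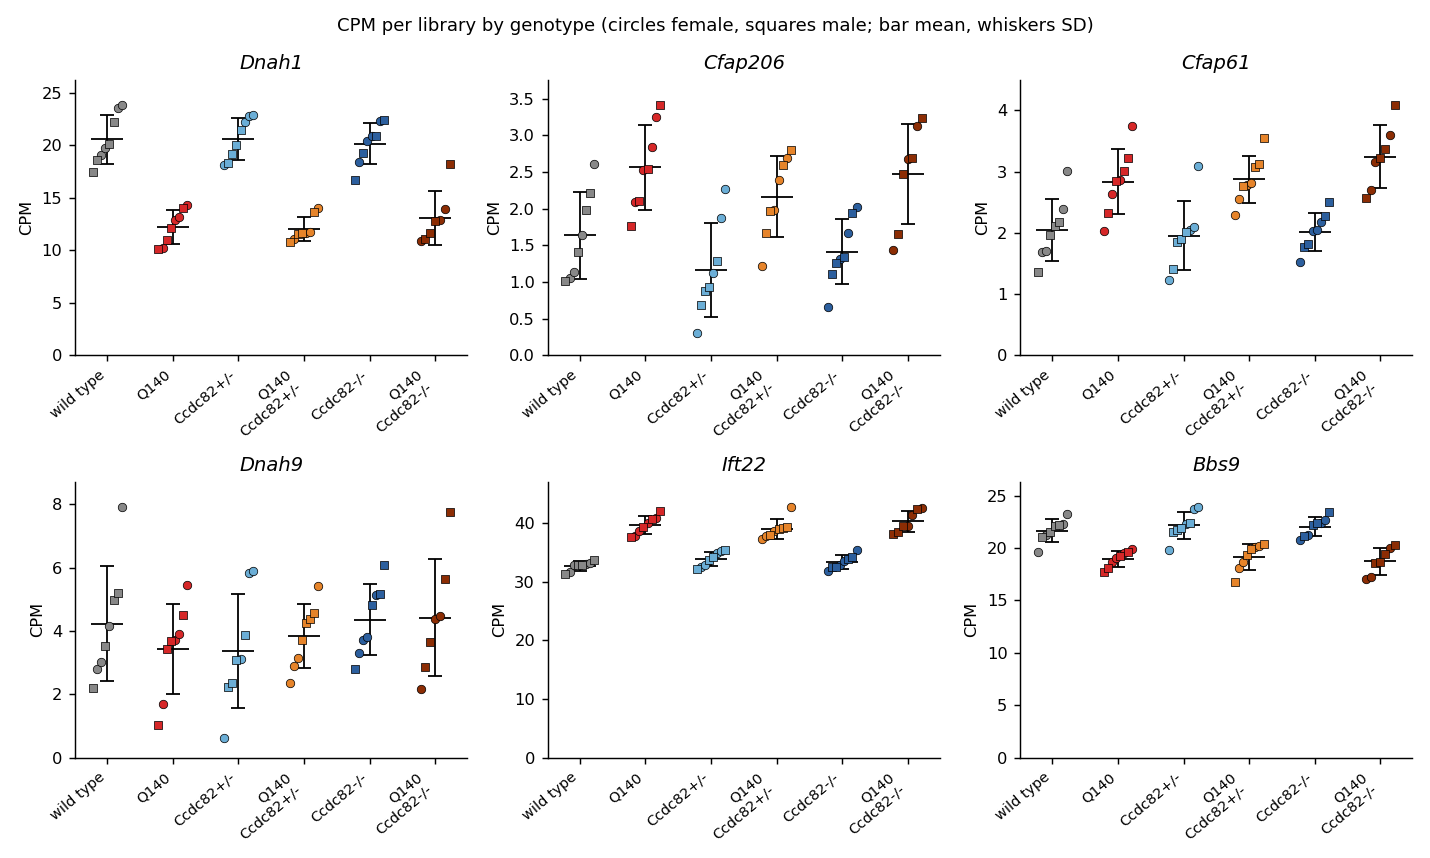
CPM in each library for 4 motile members (Dnah1, Cfap206, Cfap61, Dnah9) and 2 general members (Ift22, Bbs9) by genotype group, with mean and SD. Dnah1 and Bbs9 are lower and Cfap206, Cfap61 and Ift22 higher in the Q140 groups, while the ranges of Dnah9 overlap in all 6.

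Of the remaining motile calls, Cfap45, a protein inside the axonemal microtubules, rose by 0.58 ± 0.12 (SE) and the tektin Tekt2 by 0.34 ± 0.06 in the average effect. Cfap45 passed alone only on Ccdc82+/- (0.79), with edgeR adjusted p of 0.0988 and 0.0707 on intact Ccdc82 and Ccdc82-/-. Smaller rises were those of the dynein chain Dnah14 (0.24), the radial spoke genes Rsph3a (0.23) and Rsph3b (0.15), the assembly factor Dnaaf2 (0.13) and Cfap36 (0.074). Dnah14, with 12 to 50 counts per library, passed alone only on Ccdc82-/- (0.53). It stood at -0.034 on intact Ccdc82 and 0.23 on Ccdc82+/-. Cfap99 fell by 0.37 ± 0.06 and passed on all 3 backgrounds. So did Cfap20, a protein of the axonemal microtubule wall, which fell by 0.16 ± 0.016. Falls of Cfap74 (-0.18), Rsph10b (-0.17), Rsph9 (-0.16) and Drc1 (-0.055) completed the set. Rsph6a passed only against wild type (-0.74) and had an average change of -0.27 ± 0.16. That call was lost without the filter on low counts, with the plate column, with the marker covariate, in each sex alone and with limma on the deposited FPKM, where the change was -0.35.

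Rsph3a and Rsph3b are near copies, as are Dnah7a, Dnah7b and Dnah7c, so their counts may have been divided between copies. Rsph10b shares a strand with Pms2 and Dnaaf2 with Gm49383, and Dnah1, Cfap45, Cfap61, Cfap74, Cfap99, Tekt2, Ift57 and Ift88 overlap a gene on the other strand. Whether counting used strand is not given in the sources used here. In the average effect 8 members lost their call at one or more other settings. Those of Dnah14, Rsph9, Rsph10b, Drc1 and Ift122 were lost at settings that kept both sexes, and those of Dnaaf2, Rsph3b and Cfap45 with females alone.

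The outer-arm and most inner-arm chains did not pass with Q140. Dnah5 had an average log2 fold change of -0.078 ± 0.17 (SE), Dnah9 -0.026 ± 0.18 and Dnah11 -0.039 ± 0.20. Dnah6 stood at 0.039 ± 0.18 and Dnah10 at -0.13 ± 0.20. These errors are wide: over the 27 motile members with r of at least 0.8 the median SE was 0.171, against 0.0402 over the 15 with r under 0.3. Among the 27, Cfap206 alone passed, where 54.3% of all genes did. Of the 16 with r from 0.3 to 0.8, 6 passed, and of the 15 with r under 0.3, 9 passed, a share near that of all genes. At this spread between mice, changes of the size of these errors were not detectable.

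With the ependymal marker mean as a covariate, an alternative chosen after seeing the data, the median SE of the 27 became 0.0757 and 20 of 58 motile members passed (13 rose, 7 fell), beside 54.9% of all genes in that fit. Cfap206 then stood at 0.85 ± 0.09 (SE), Cfap45 at 0.63 ± 0.08, Cfap61 at 0.60 ± 0.06 and Dnah1 at -0.71 ± 0.04. Newly past the threshold were the spoke head protein Rsph4a (0.21 ± 0.05), Dnah7a (0.20 ± 0.07), Cfap100 (0.10 ± 0.04) and Cfap69 (0.097 ± 0.03). Of the general members 9 rose and 5 fell in that fit. In the main fit, where 54.3% of all genes passed, the 13 markers themselves had a median of -0.083 in the average Q140 effect. Of the 13 markers 11 were below 0, with a lowest value of -0.44. None of these 11 passed, Foxj1 (-0.032 ± 0.12) among them, and the other 2 rose, Enkur (0.58 ± 0.14) and Meig1 (0.27 ± 0.10). Their summed level had a median of 50.2 CPM and a highest value of 82.8 without Q140, and 49.0 and 87.2 with it, and 2 of the 13 were at 0 in at least 1 library. Of 11 tested choroid plexus markers 1 rose and 3 fell in the main fit, beside the same 54.3% of all genes, with a median of -0.49. Without the library highest in them, 10 motile members rose and 7 fell, beside 53.9% of all genes past the threshold. Of 8 neuroblast and subventricular markers 2 rose in the main fit, Sox11 (0.79 ± 0.06) and Dcx (0.34 ± 0.06), again beside 54.3% of all genes. The part of these cells in the motile calls was not tested. The covariate is a mean of ependymal markers alone, whose r with the motile mean was 0.984. It removes what the 2 means share and cannot test cell content.

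**Figure D4:**
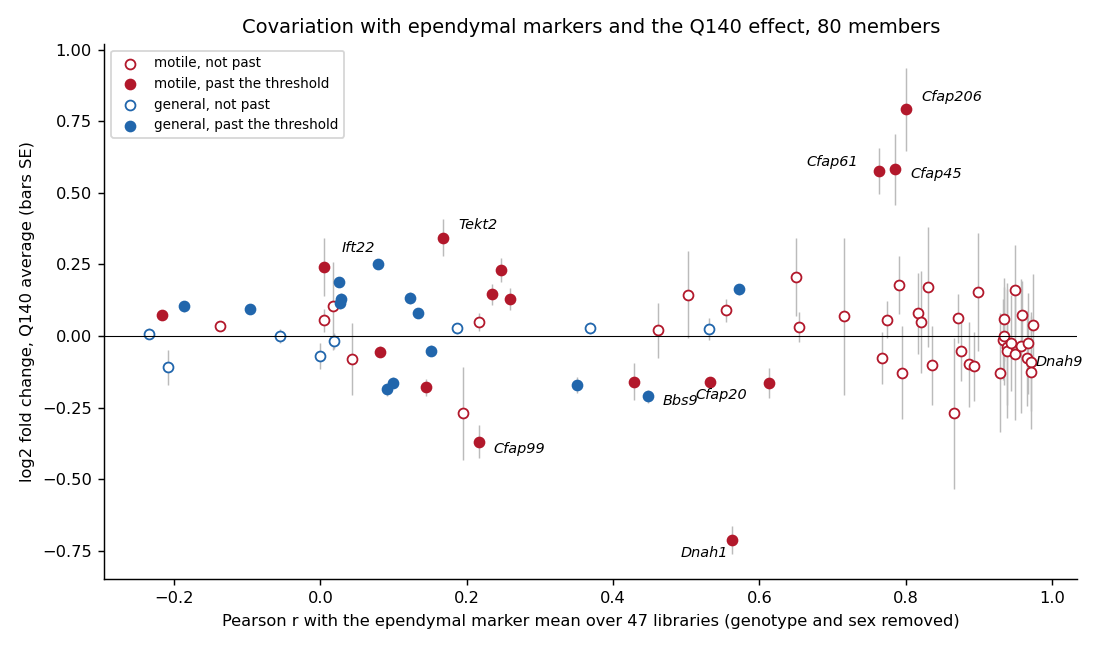
Average Q140 log2 fold change (vertical, bars SE) of the 80 tested members against their correlation with the ependymal marker mean (horizontal). Filled points passed the threshold. At r of at least 0.8 only Cfap206 did, and the median SE of the motile members there was 0.171, against 0.0402 at r under 0.3.

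Among general members the transport subunit Ift22, a small GTPase-like protein, rose most. It ranged from 31.3 to 33.7 CPM in wild type and 37.7 to 42.0 in Q140, from 32.2 to 35.4 in Ccdc82+/- and 37.3 to 42.7 in Q140 Ccdc82+/-, and from 31.8 to 35.4 in Ccdc82-/- and 38.1 to 42.6 in Q140 Ccdc82-/-. All 23 carriers lay above all 24 non-carriers. The average change was 0.25 ± 0.017 (SE; edgeR adjusted p = 2.84e-18). The BBSome subunit Bbs1 separated the same mice, with 52.4 to 59.7 CPM in the 24 without Q140 and 59.9 to 68.8 CPM in the 23 with it, a change of 0.19 ± 0.015.

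Other rises were in the core transport subunits Ift74 (0.16), Ift88 (0.13) and Ift52 (0.11), in Ift172 (0.13) and Ift80 (0.079), and in the BBSome subunits Bbs7 (0.10) and Bbs5 (0.093). Falls were seen in the BBSome subunits Bbs9 (-0.21 ± 0.024) and Bbs2 (-0.19 ± 0.022), and in Ift27 (-0.17), Ift57 (-0.16) and Ift122 (-0.051). Bbs9 had medians of 21.8, 22.2 and 22.3 CPM in the control groups and 19.2, 19.6 and 18.6 in the Q140 groups. Subunits of 1 complex thus moved in opposite directions: of the BBSome, Bbs1, Bbs5 and Bbs7 rose, Bbs2 and Bbs9 fell, and Bbs4 stood at -0.00027 ± 0.023. The chaperonin-like genes Bbs10 and Bbs12, which help assemble the BBSome, did not pass.

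By background the counts were close. Against wild type 11 motile members passed (5 rose, 6 fell) and 13 general members (9 rose, 4 fell), where 34.7% of all genes did. On Ccdc82+/- 9 motile (5 rose, 4 fell) and 13 general members (9 rose, 4 fell) passed, beside 35.0% of all genes. On Ccdc82-/- it was 10 motile (7 rose, 3 fell) and 11 general members (7 rose, 4 fell), beside 33.2%. Ranges of carriers and controls did not overlap for 2 motile and 3 general members on intact Ccdc82 (9.77% of genes), 1 and 4 on Ccdc82+/- (10.3%) and 2 and 3 on Ccdc82-/- (9.48%). Over the pooled 23 and 24 mice this held for 0 motile and 2 general members, Ift22 and Bbs1 (3.84%).

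The median motile change was -0.16 on intact Ccdc82, 0.11 on Ccdc82+/- and 0.049 on Ccdc82-/-. Without the 2 libraries lowest in motile members, Ccdc82+/- female 4 and Q140 male 1, these were -0.075, 0.046 and 0.051. Without Ccdc82-/- male 1, highest in choroid plexus markers, the value on Ccdc82-/- was 0.10. With the plate column it turned to -0.056, and in females alone all 3 were below 0, at -0.15, -0.072 and -0.0003. The median of the ependymal markers was -0.20, 0.068 and -0.033 on the 3 backgrounds in the same order, with all 47 libraries. With the marker mean as a covariate the motile medians were 0.018, 0.040 and 0.021.

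**Figure D5:**
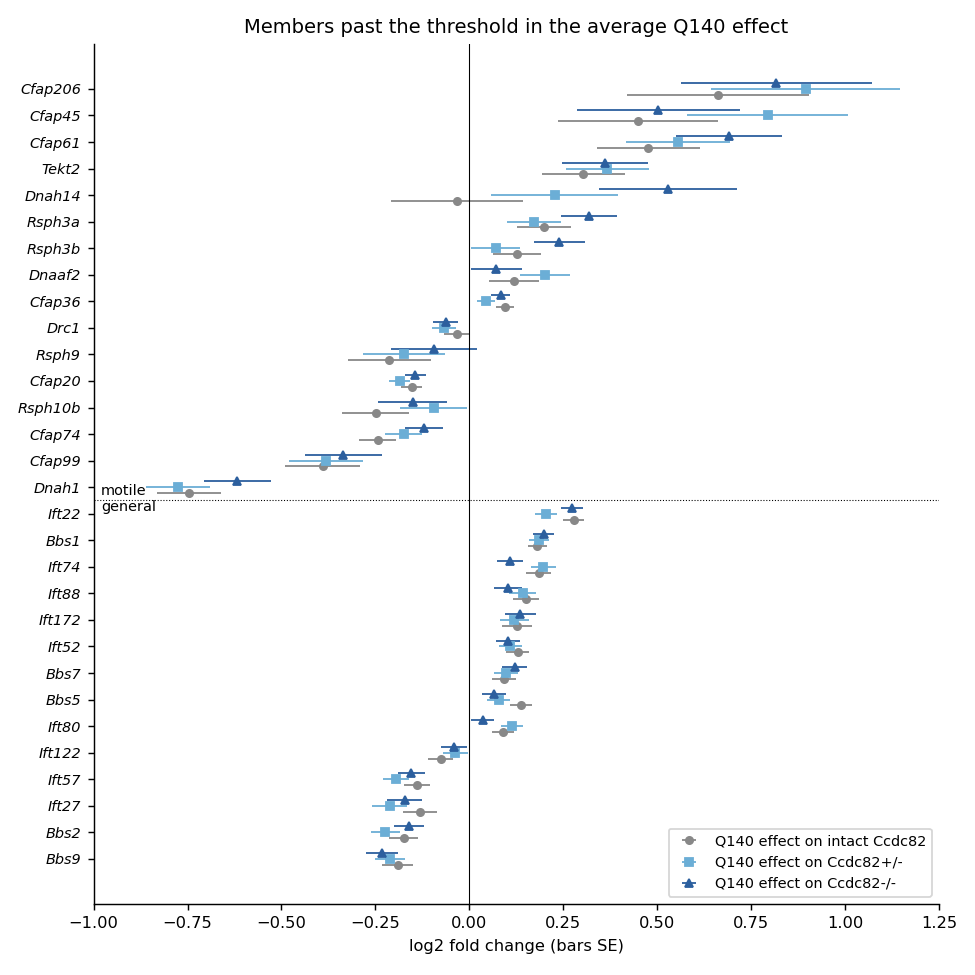
Log2 fold change with SE of the 16 motile and 14 general members past the threshold in the average Q140 effect, given for Q140 on intact Ccdc82, Ccdc82+/- and Ccdc82-/-. Dnah1 lies at -0.75, -0.78 and -0.62 and Cfap206 at 0.66, 0.89 and 0.82.

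The second question was whether loss of Ccdc82 altered these genes. No member passed in edgeR or in DESeq2 in any of the 4 comparisons, in each of which 0.00521% of genes (1 gene) passed. At an unadjusted p under 0.05, 0 motile and 0 general members were found for Ccdc82+/- or Ccdc82-/- against wild type, beside 3.27% and 4.19% of all genes. With Q140 there was 1 motile member for Ccdc82+/-, Dnah14, beside 5.74% of all genes. For Ccdc82-/- there were 5, Dnaaf3, Dnaaf5, Dnah7a, Dnah7c and Rsph3a, all higher, and 1 general member, Ift74, lower, beside 3.71% of all genes. In this last comparison all 13 ependymal markers (median 0.35) and all 8 neuroblast and subventricular markers (median 0.34) were also above 0, with none past the threshold. The part of these cells in the motile values was not tested. The median SE of a motile log2 fold change in these comparisons was 0.222 to 0.23, and that of a general one 0.0342 to 0.0353. Motile medians were -0.19 and 0.013 for Ccdc82+/- and Ccdc82-/- against wild type, beside ependymal marker medians of -0.31 and 0.13. Against Q140 they were 0.076 for Q140 Ccdc82+/- and 0.18 for Q140 Ccdc82-/-, where 52 of 58 motile members were above 0, beside marker medians of 0.093 and 0.35. Without the 2 libraries lowest in motile members the 4 motile medians were -0.093, 0.014, -0.0035 and 0.13, and without Ccdc82-/- male 1 the second was -0.032. With the marker mean as a covariate they were 0.014, -0.051, 0.029 and -0.016.

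Whether the Q140 effect differed with Ccdc82 was tested by 2 interactions, in which 0.00% of genes passed. At an unadjusted p under 0.05 they gave 1 motile member (Dnah2) for Ccdc82+/- and 2 (Dnah14 and Rsph6a) for Ccdc82-/-, with 0 general members, beside 5.27% and 4.30% of all genes. DESeq2 called 0 members in either. For Ccdc82+/- 49 of 58 motile interaction terms were above 0 with a median of 0.26, and the marker median was 0.43. The motile median was 0.082 without the 2 libraries lowest in motile members, 0.063 in females alone, 0.44 in males alone and 0.017 with the marker mean as a covariate. For Ccdc82-/- 51 of 58 motile terms were above 0 with a median of 0.14 beside a marker median of 0.19, and the motile median was 0.22 without Ccdc82-/- male 1 and 0.039 with the covariate.

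Between the sexes 0 of 58 motile and 2 of 22 general members passed, beside 8.67% of all genes. Ift172 was higher in females by 0.10 ± 0.023 (SE) and Ift57 by 0.071 ± 0.020. At an unadjusted p under 0.05 there were 3 motile members, Cfap36, Dnaaf2 and Rsph10b, all lower in females, beside 24.2% of all genes. DESeq2 called 0 motile and 2 general members, beside 11.8% of all genes.

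Other genes of cilia were read from 3 lists, of which 37.5%, 77.8% and 61.1% passed in the order given, beside 54.3% of all genes. Of 56 tested components of motile cilia 13 rose and 8 fell in the average Q140 effect, with a median of 0.016. The regulatory factor Rfx2 fell by 0.77 ± 0.06 (SE) and Ccno, which acts in the amplification of centrioles, by 0.83 ± 0.09. Lrriq1 rose by 0.69 ± 0.07. Rfx3 was at 0.01, while Gmnc and Mcidas, which set the multiciliated fate, had values of 0.37 ± 0.18 and -0.18 ± 0.10 and did not pass. Of 54 other general cilium genes 32 rose and 10 fell, with a median of 0.065 and the largest rise in Kif7 (0.44 ± 0.05), a kinesin of the Hedgehog pathway. Of 18 signalling genes of the neuronal primary cilium 3 rose and 8 fell, with a rise of 0.49 ± 0.03 in the receptor Gpr161 and the largest fall in the dopamine receptor Drd1 (-0.59 ± 0.02). Drd1 was also on the list of medium spiny neuron markers, all of which fell with Q140.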

How the data were processed

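Striatal RNA of 47 mice was made into TruSeq stranded libraries, per the labels' protocols. The deposited table of raw read counts per gene was used for all tests, and the deposited FPKM, which the authors scaled by gene length and library total, for levels and 1 alternative. Per the submitters' processing notes, the tools were HTSeq 0.12.3, SAMtools 1.10 and STAR 2.7.5c, and the builds GRCm38 and mm10. Settings and annotation release are not given in the sources used here. Counts were fitted in R 4.3.3 with edgeR 4.0.16 (filterByExpr, TMM, robust quasi-likelihood test, 1 coefficient per group plus sex, all 47 libraries). P-values were adjusted by Benjamini-Hochberg over 19193 genes, with 0.05 as the threshold, and the tests were checked on simulated data. CPM used TMM-scaled totals. Correlations used log2 CPM with a prior count of 2. Overlapping genes were read from GENCODE M21. Precision is limited by counting error, which depends on depth, and by the spread between mice. PCR duplicates were not told apart.

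Members and lists were chosen with earlier results of these data known. Named were members past the threshold, the highest member of each family, near copies, the 15 genes most like the motile mean, and Ccdc82, Htt and ciliogenesis factors. Alternatives were RLE scaling, DESeq2 1.42.0, no filter, no sex term, a replicate block, the plate column, only the groups compared, limma 3.58.1 on log2(FPKM + 0.1), each sex alone, and 3 chosen after seeing the data. Tekt3, with low counts, was left out of the tests.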

Additional observations from a re-analysis of the deposited data

Results flagged for a closer look

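Among 72 sets of values, from the class means and selected members in each of 6 groups, 3 had a library far from the others of its group. Chance flags about 1 in 20 such sets. Dnah1 was at 18.27 CPM in Q140 Ccdc82-/- male 2, where the next mouse of the group was at 13.97. The same library had the highest motile mean (1.95) and ependymal marker mean (1.90) of the 47. Cfap61 was at 3.099 CPM in Ccdc82+/- female 3, with the next at 2.091. Ift22 was at 42.72 CPM in Q140 Ccdc82+/- female 2, with the next at 39.35.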

How the results depend on the processing

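Counts of members past the threshold stayed within 1.5 times in all but 11 of 280 recomputed summary values. The 280 include the Ccdc82 comparisons and the interactions, where no member passed at any setting. A count that stayed at none was scored as unchanged. All 11 lay in the Q140 comparisons or between the sexes, so 280 is too wide a base for them. In a single sex, which leaves fewer mice, calls fell over all genes too. With females alone, Q140 against wild type gave 5 motile and 7 general members (22.4% of all genes), Q140 on Ccdc82+/- gave 3 and 6 (17.3%), and Q140 on Ccdc82-/- gave 6 and 6 (17.9%). With males alone, motile members numbered 5 on intact Ccdc82 (20.4%) and 6 on Ccdc82-/- (19.6%), and general members 4 on Ccdc82-/-. Between the sexes 1 motile member, Cfap36, passed with the deposited FPKM in limma (7.30% of all genes). Again Cfap36 alone passed without the 2 libraries lowest in motile members (6.69%). Of 1257 recomputed values of single members, 1148 kept their direction and side of the threshold, 107 kept direction only (71 of them in a single sex) and 2 turned. Those were Ift122 (0.011, adjusted p = 0.668) and Drc1 (0.0094, adjusted p = 0.715) in the average Q140 effect with limma on FPKM; the cause was not tested. There, Rsph9 and Rsph10b had adjusted p of 0.207 and 0.108. Dnah14 had 0.0671 without the filter, 0.0536 with the block and 0.0876 with the plate column. With the plate column, Cfap206 against wild type had 0.085 and on Ccdc82-/- 0.0559, and Tekt2 0.156 and 0.0581. Without the 2 lowest libraries (Ccdc82+/- female 4 and Q140 male 1), Tekt2 against wild type had 0.0524 and Bbs5 on Ccdc82+/- 0.0785. Bbs5 there was also lost with RLE (0.0618), without the filter (0.118), with the plate column (0.0535), with only the groups compared (0.073), in DESeq2 (0.0579) and in each sex alone. Rsph6a against wild type had 0.0572 without the filter, 0.0893 with the plate column, 0.0512 with the marker covariate and 0.0524 with limma on FPKM. With females alone Dnaaf2, Rsph3b and Cfap45 had 0.0652, 0.0968 and 0.0603 in the average effect. The replicate block of sex and number gave 15 motile and 14 general members in the average effect, beside 54.2% of all genes. Same-numbered mice of 1 sex had a median correlation of 0.0217 over 115 pairs of libraries (-0.597 to 0.732). Mice of the same sex with other numbers had -0.0447 over 345 pairs (-0.633 to 0.688). No pairing by number was assumed in the main fit.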
